A study of Homo sapiens with 27 samples.

Results

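Baseline gene expression was compared between 3 libraries labelled Huh7 and 3 libraries labelled 293T, all from cells in which ARID1A had been knocked out and wild-type ARID1A had been put back. These 6 of the 27 libraries in the series were chosen by their labels alone, as all replicates of each line with the wild-type protein. In both groups a Flag-tagged ARID1A was expressed stably from a lentivirus. Huh7 is a line from a human hepatocellular carcinoma and 293T is a human embryonic kidney line that carries the SV40 large T antigen. The 3 libraries of each line with the V2084D missense form of ARID1A, which share no library with the first comparison, were used to see which line differences were measured a second time. Every other allele and agent was the same on both sides of a comparison, but the amount of ARID1A RNA was not. Whether the 3 replicates of a group were grown apart, or came from 1 clone, is not given in the labels, and the p-values then cover only the spread among these samples, which may be technical.

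ARID1A is the DNA-binding subunit that defines the canonical BAF (SWI/SNF) chromatin remodelling complex, which moves nucleosomes at enhancers and promoters. A hepatocyte is recognised by secreted plasma proteins such as albumin and by the transcription factor HNF4A that drives many of their genes. Lines of the 293 family are unusual for an embryonic kidney culture, since they express kidney progenitor factors such as EYA1 together with neurofilaments and the signalling adaptor IRS4. Type I interferon signalling starts when sensors of viral RNA such as RIG-I and MDA5 induce interferon beta, which acts through its receptor, JAK kinases and STAT factors to switch on antiviral genes.

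ARID1A itself (ENSG00000117713, chromosome 1, 26693236 to 26782110 on GRCh38) had 329, 354 and 390 CPM (counts per 1000000 after TMM scaling over all 27 libraries) in the libraries labelled Huh7, against 5727, 9391 and 63180 CPM in those labelled 293T. The ranges did not overlap, and the 3 libraries of the 293T label were themselves spread over more than a factor of 10. The knockout 293T cells with no added ARID1A had 119, 134.7 and 194.5 CPM. With those as the reference the Huh7 label was higher in ARID1A by 1.27 on the log2 scale (SE 0.18, edgeR adjusted p = 0.00113), whereas against the 293T cells with wild-type ARID1A it was lower by 6.19 (SE 0.90, adjusted p = 0.00207). Cell line, deposited count table and amount of ARID1A therefore changed together and cannot be told apart. STUB1, a ubiquitin ligase that was knocked down in a further group of the series, had 221, 207 and 237 CPM in the Huh7 label and 331, 267 and 186 CPM in the 293T label, and its difference of −0.23 did not pass the test (SE 0.19, adjusted p = 0.40). It was −0.41 (adjusted p = 0.0293) without replicate 3 of the 293T label and −0.01 without replicate 1 of that label.

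Total counts were 59124374 to 72693440 per library labelled Huh7 and 45736601 to 55539529 per library labelled 293T. The libraries of the Huh7 label lay close together, with a chi-square per degree of freedom of 11.1 to 20.4 between replicates, against 61.7 to 197 for the 293T label. These values include ARID1A, whose counts in the 293T label were 263120, 534823 and 2748076. They were not computed without it, so they are not a measure of the other genes alone. Rank correlations over 24546 genes were 0.949 to 0.958 between the lines, 0.981 within the Huh7 label and 0.969 to 0.979 within the 293T label. Between wild-type and V2084D libraries they were 0.963 to 0.965 under the Huh7 label and 0.969 to 0.982 under the 293T label. The wild-type libraries labelled Huh7 thus also stood apart from the V2084D libraries of the same label. Of 21229 genes tested, 5388 (25.4%) were called by edgeR's quasi-likelihood test at a Benjamini-Hochberg adjusted p under 0.05, of which 2770 (13%) were higher and 2618 (12.3%) lower in the Huh7 label. A difference of at least 1 on the log2 scale was reached by 953 of the higher and 1455 of the lower genes, and the median over all genes was −0.03. The number of calls was 2801 to 2984 when any one library labelled Huh7 was left out, against 4457 to 6839 when a library labelled 293T was.

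The label was checked first, because a liver line should carry liver genes. It did not show them. AFP, SERPINA1, APOH, APOC3, KNG1 and the fibrinogen genes FGA, FGB and FGG, all products of the liver that circulate in plasma, had no count in any of the 6 libraries. ALB, which encodes serum albumin, had 0, 0.20 and 0.23 CPM in the libraries labelled Huh7, against 2.18, 1.95 and 3.63 CPM in those labelled 293T, so the liver product was lower in the liver label (log2 difference −4.14, SE 0.75, adjusted p = 0.00506). HNF4A had 0.187, 0.061 and 0.127 CPM in the Huh7 label and 0.087, 0.105 and 0 CPM in the 293T label, and it passed no filter. The summed level of the 25 secreted proteins was 74.9 to 77.6 CPM in the Huh7 label and 84.2 to 147.2 CPM in the 293T label, most of it from APOE, whose ranges overlapped.

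Of those 25 genes, 10 passed the filter on low counts, 1 of them was higher and 4 were lower (13% and 12.3% over all genes). APOB, the structural protein of very low density lipoprotein, was the higher one. It had 1.72, 3.31 and 1.70 CPM in the Huh7 label and no count in the 293T label. It therefore passed the filter through the Huh7 label alone. With V2084D it had 0, 0 and 0.13 CPM in the Huh7 label and did not pass. The lower ones were ALB, the haem carrier HPX, the iron carrier TF and the apolipoprotein APOC1. APOC1 had 8.35, 7.52 and 11.4 CPM in the libraries labelled Huh7, against 38.6, 25.1 and 20.9 CPM in those labelled 293T, and the groups did not overlap (log2 difference −1.63, SE 0.25, adjusted p = 0.00272). Of 22 genes of hepatocyte metabolism 9 passed the filter, 0 were higher and 2 lower (13% and 12.3% over all genes). The urea cycle enzyme CPS1, the best counted of them, had 35.9, 34.2 and 30.2 CPM in the Huh7 label and 26.5, 31.8 and 48.8 CPM in the 293T label, which overlap.

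Some genes often used as liver or liver tumour markers were present in both labels. The pioneer factor FOXA1 had 20.2, 22.3 and 19.7 CPM in the Huh7 label, against 10.1, 11.8 and 6.94 CPM in the 293T label (log2 difference 1.12, SE 0.20, adjusted p = 0.00484). The cell surface proteoglycan GPC3, used in the clinic as a marker of hepatocellular carcinoma, had 15.9, 19.6 and 16.1 CPM in the Huh7 label, against 9.97, 8.48 and 9.24 CPM in the 293T label (0.90, SE 0.16, adjusted p = 0.00467). The growth factor gene IGF2, which many liver tumours express, went the other way, with 5.68, 5.50 and 7.69 CPM in the Huh7 label, against 26.1, 32.4 and 18.99 CPM in the 293T label (−2.03, SE 0.23, adjusted p = 0.000693). Of 14 hepatocyte transcription factors 8 passed the filter, and FOXA1 was the 1 called higher and NR5A2 the 1 called lower. These counts read against 13% higher and 12.3% lower over all genes.

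Genes typical of 293 cells were present under both labels. Of 18 such genes, 15 averaged at least 1 CPM in the Huh7 label and 15 in the 293T label, and their summed level was 1631 to 1684 CPM in the Huh7 label and 989 to 1337 CPM in the 293T label. A large part of both sums was VIM, which is also counted below among mesenchymal genes. It had 774, 773 and 829 CPM in the Huh7 label and 727.5, 682.8 and 469.2 CPM in the 293T label. IRS4, an adaptor of insulin and growth factor receptors that few adult tissues express, had 431, 463 and 431 CPM in the libraries labelled Huh7, against 142, 238 and 173 CPM in those labelled 293T. It was higher in the Huh7 label by 1.27 (SE 0.18, adjusted p = 0.00183), with no overlap. The neurofilament gene NEFL (ENSG00000277586) had 50.2, 48.9 and 52.3 CPM in the Huh7 label, against 142.3, 138.6 and 103.9 CPM in the 293T label, a difference of −1.34 (SE 0.15, adjusted p = 0.000594). SIX4, MAP1B and CDH2 were also higher in the Huh7 label, by 0.74 to 0.85.

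Kidney progenitor factors were likewise present under both labels, with 14 of 15 averaging at least 1 CPM in each. Of the 14 that passed the filter 5 were higher and 1 lower, against 13% higher and 12.3% lower over all genes. The direction was not the same with V2084D, where 2 were higher and 6 lower of 14 (21.5% and 19% over all genes). The homeobox genes SIX4, HOXD11, HOXA11 and EMX2, which pattern the early kidney, were among the higher ones, and SALL1 was lower. The labels' description of the Huh7 samples as liver carcinoma cells goes against these markers, and the libraries are called here by their label only. Without any one library labelled Huh7 the higher kidney factors numbered 3.

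**Figure D1:**
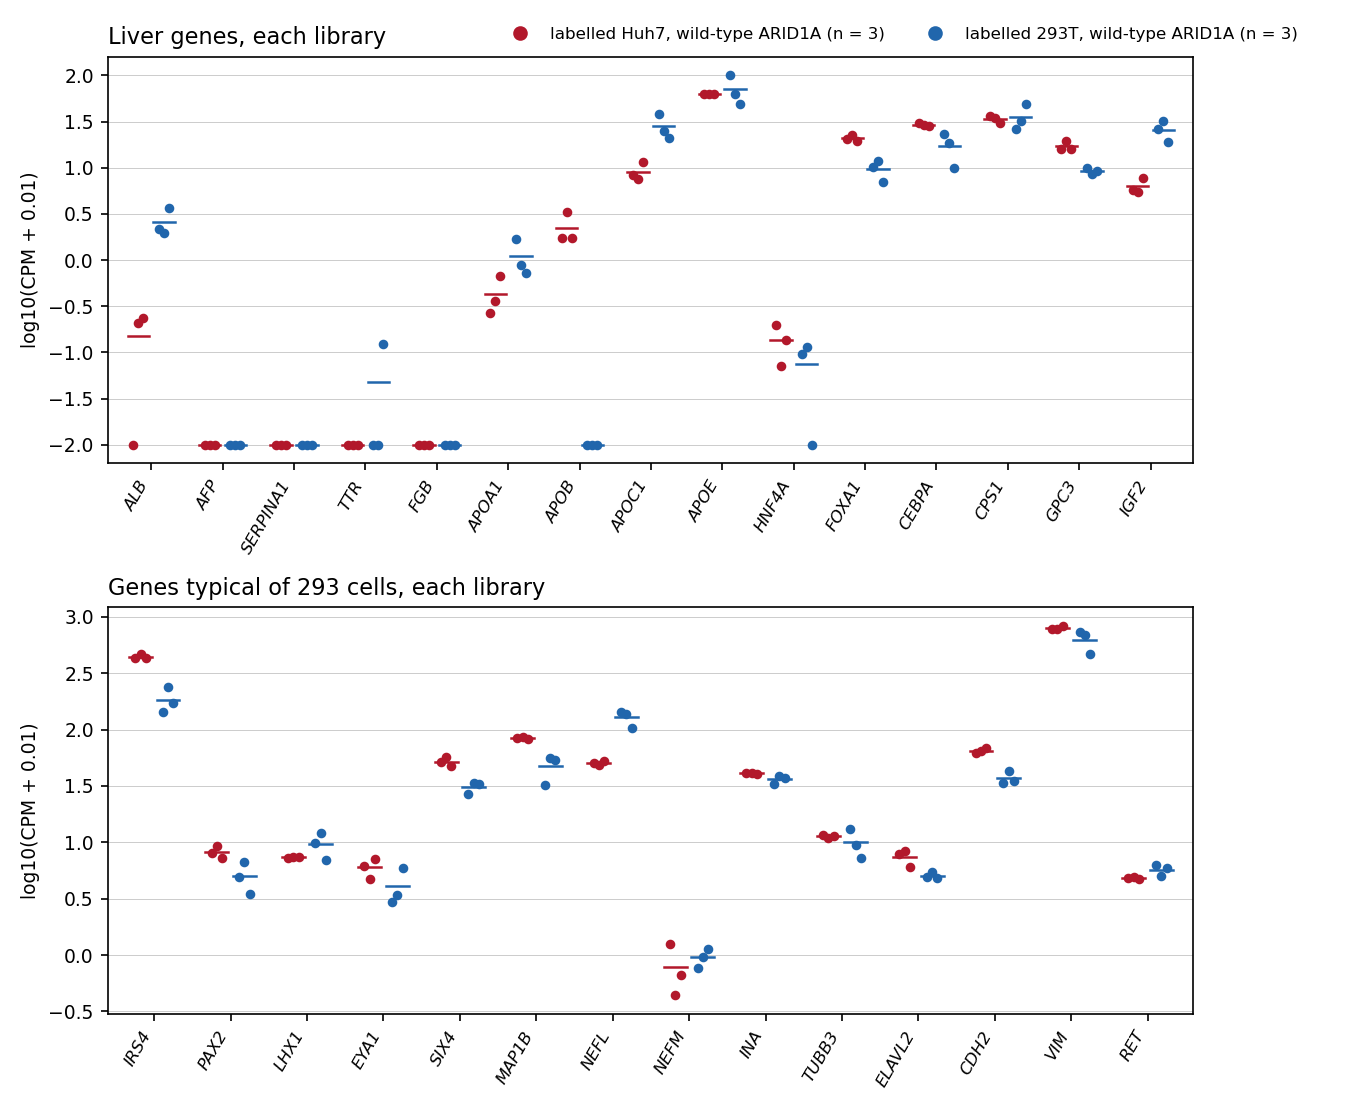
Levels of liver genes (upper panel) and of genes typical of 293 cells (lower panel) in each library, as log10 of CPM plus 0.01, with a bar at the mean CPM of 3 libraries. AFP, SERPINA1 and FGB sit at the floor in both labels, while the 293-typical genes lie at similar heights, IRS4 at 431 to 463 CPM in the Huh7 label and 142 to 238 CPM in the 293T label.

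Other cell types were looked for in the same way. The blood cell genes PTPRC and CD3E were at 0 in all 6 libraries, and the 10 blood cell genes summed to 3.02 to 4.08 CPM in the Huh7 label and 12.9 to 16.96 CPM in the 293T label. Of 7 endothelial genes, KDR and TEK passed the filter on low counts. TEK, a receptor of angiopoietins, had 0.46, 0.61 and 0.55 CPM in the Huh7 label and no count in the 293T label, so it passed through the Huh7 label alone. Both were called higher, but 1 was with any one library left out. Of 14 epithelial genes 9 passed, 1 was higher and 2 were lower. KRT18, a keratin of simple epithelia, had 132, 129.9 and 139.9 CPM in the Huh7 label, against 87.6, 72.7 and 53.4 CPM in the 293T label (0.92, SE 0.17, adjusted p = 0.00617), and CDH1 and CLDN4, which encode junction proteins, were lower by 1.39 and 2.69. Differentiated kidney genes gave 2 higher and 0 lower among the 5 of 14 that passed. Adrenal and chromaffin genes gave 0 higher and 2 lower among the 7 of 12 that passed. The counts of this paragraph read against 13% higher and 12.3% lower over all genes.

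Some matrix genes were far apart between the labels. All 20 mesenchymal and matrix genes passed the filter, 5 were higher and 1 lower (13% and 12.3% over all genes). The median over the list was −0.02, close to the −0.03 of all genes. COL3A1, a fibrillar collagen, had 31.3, 34.2 and 31.6 CPM in the libraries labelled Huh7, against 1.502, 1.05 and 1.01 CPM in those labelled 293T (log2 difference 4.77, SE 0.20, adjusted p = 3.11e-06). FN1, which encodes fibronectin, had 145.4, 151.2 and 154.7 CPM in the Huh7 label, against 30.1, 44.4 and 47.5 CPM in the 293T label (1.89, SE 0.18, adjusted p = 0.000343). The groups did not overlap for either gene. SPARC, TWIST1 and CDH2 were the other higher members, and COL1A2 was lower, at 0, 0.02 and 0 CPM in the Huh7 label against 0.46, 0.44 and 0.39 CPM in the 293T label.

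Neuronal genes did not separate the labels as a group. Of 19 genes of the neuronal cytoskeleton and of neuronal RNA-binding proteins 15 passed, 4 were higher and 2 lower, against 13% higher and 12.3% lower over all genes. The higher ones numbered 1, 2 and 1 without replicates 1, 2 and 3 of the Huh7 label, and 1 was lower without replicate 1 or 2 of the Huh7 label or replicate 2 or 3 of the 293T label. MAP2, a microtubule protein of dendrites, averaged 6.75 CPM in the Huh7 label and 1.74 CPM in the 293T label (log2 difference 1.96, SE 0.21, adjusted p = 0.000595), while NEFL lay lower as given above.

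Only called protein-coding genes above a minimum mean level, given with the processing, were ranked by difference, which leaves out APOB and IFNB1. Among those ranked, the 10 largest differences upward were those of PPP1R14A, CSAG3, CCL5, CSAG2, AMBN, IFIT2, IFIT3, IFI44, KRT17 and OASL. The first 5 are not on the interferon list, and IFIT2, IFIT3, IFI44 and OASL are. Folds against a group at 0 are lower bounds, set with a floor of 3 counts over the 293T group. PPP1R14A, an inhibitor of myosin phosphatase, had 14.96, 15.02 and 15.9 CPM in the Huh7 label and no count in the 293T label, at least 746-fold higher. The cancer-testis genes CSAG3 and CSAG2 were at least 695-fold and at least 319-fold higher and AMBN, which encodes an enamel matrix protein, at least 312-fold. CSAG2 and CSAG3 are near-identical neighbours on chromosome X, so reads may have been split between them and neither value is certain.

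CCL5, a chemokine that draws T cells and monocytes, had 62.4, 62.5 and 66.8 CPM in the libraries labelled Huh7, against 0, 0.04 and 0 CPM in those labelled 293T. These 5 genes (PPP1R14A, AMBN, CSAG2, CSAG3 and CCL5) were the only ones with at least 5 CPM in each library of the Huh7 label and under 0.1 CPM in each library of the 293T label, and 0 genes met the reverse condition. KRT17, a keratin of stressed and basal epithelium, had 38.6, 38.6 and 41.0 CPM in the Huh7 label, against 0, 0.09 and 0.21 CPM in the 293T label.

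A list of 28 interferon-stimulated genes was examined, chosen with earlier results of these data known, and 27 of them passed the filter. Of these 21 were higher in the Huh7 label, 1 was lower and 5 were not called, against 13% higher and 12.3% lower over all genes. Their median log2 difference was 2.18, against −0.03 over all genes tested. Their summed level was 3035 to 3122 CPM in the libraries labelled Huh7 and 218 to 237 CPM in those labelled 293T. OAS1 did not pass the filter, at 0.34, 0.12 and 0.42 CPM in the Huh7 label and 0 in the 293T label.

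Promoter sequences are shown for 3 of the members with large differences and for STAT2, picked as a member that was not called and holds no match, because interferon-activated STAT complexes and interferon regulatory factors bind a repeat of GAAA in such promoters. The RefSeq promoter table on GRCh38.p14, with 250 bases before and 50 after each start, held 20 of the 28 members; IFIT2, OASL, MX2, OAS2, IRF7, USP18 and IFITM2 were among those not in it. Each is printed 5′ to 3′ on the gene's strand, with every match in capitals to GAAA, any 2 bases and GAAA again, or on the other strand to TTTC, any 2 bases and TTTC.
IFIT1, chr10:89392373-89392672, plus strand: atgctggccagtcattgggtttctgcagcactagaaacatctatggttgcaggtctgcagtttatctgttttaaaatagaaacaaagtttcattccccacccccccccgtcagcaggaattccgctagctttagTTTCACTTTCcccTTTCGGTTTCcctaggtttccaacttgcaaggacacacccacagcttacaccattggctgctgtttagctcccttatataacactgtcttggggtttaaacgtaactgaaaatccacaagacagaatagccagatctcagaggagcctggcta
IFIT3, chr10:89327747-89328046, plus strand: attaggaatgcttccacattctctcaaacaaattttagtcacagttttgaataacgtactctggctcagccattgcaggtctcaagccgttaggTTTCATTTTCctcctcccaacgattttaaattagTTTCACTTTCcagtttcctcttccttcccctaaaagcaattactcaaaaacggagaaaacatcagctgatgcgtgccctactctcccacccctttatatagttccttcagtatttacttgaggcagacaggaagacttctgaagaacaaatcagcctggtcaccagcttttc
ISG15, chr1:1013247-1013546, plus strand: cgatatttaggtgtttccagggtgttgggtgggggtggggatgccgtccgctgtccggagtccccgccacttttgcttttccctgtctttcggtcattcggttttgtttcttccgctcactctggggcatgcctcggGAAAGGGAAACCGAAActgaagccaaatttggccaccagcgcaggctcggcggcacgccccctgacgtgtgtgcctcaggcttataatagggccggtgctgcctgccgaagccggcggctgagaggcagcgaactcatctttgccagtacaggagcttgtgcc
STAT2, chr12:56360058-56360357, minus strand: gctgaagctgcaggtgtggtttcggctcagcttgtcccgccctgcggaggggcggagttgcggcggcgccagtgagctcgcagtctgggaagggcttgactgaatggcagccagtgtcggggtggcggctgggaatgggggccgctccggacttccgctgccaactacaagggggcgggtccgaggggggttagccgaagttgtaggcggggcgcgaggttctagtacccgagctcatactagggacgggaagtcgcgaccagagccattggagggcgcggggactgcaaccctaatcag

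IFIT1 and IFIT3 held 2 matches each, ISG15 held 2 that overlap, and STAT2 held 0. Of the 20 members with a promoter in the table, 16 held at least 1 match, against 1255 of all 35116 promoters in it (3.57%). The members with 0 matches in this window were DDX58, OAS1, STAT2 and IRF9. DDX58 was called higher in the Huh7 label with 0, while IFI27, which was not called, held 2 and IFIT5, higher by only 0.61, held 3. The promoters of DDX58 and OAS1 do hold GAAA, 1 base and GAAA again, a spacing that the pattern used here does not count. A match is a run of letters and not a shown binding site.

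The effectors of the response had the largest differences. IFIT1 (chromosome 10, 89392546 to 89406486), whose product binds viral RNA caps, had 1045, 1033 and 979.6 CPM in the libraries labelled Huh7, against 7.07, 4.76 and 8.58 CPM in those labelled 293T (log2 difference 7.23, SE 0.25, adjusted p = 7.44e-07). Its neighbours IFIT2 and IFIT3, which act in the same RNA-binding complex, had 545.8, 539 and 517 CPM and 399, 400.3 and 397 CPM in the Huh7 label, against 0.61, 0.28 and 1.31 CPM and 0.39, 0.88 and 0.71 CPM in the 293T label. Their differences were 9.56 (SE 0.44, adjusted p = 6.05e-06) and 9.22 (SE 0.26, adjusted p = 3.93e-07). IFIT5, the fourth gene of that cluster, had 39.4, 38.7 and 35.1 CPM in the Huh7 label, against 25.7, 24.99 and 23.5 CPM in the 293T label, a far smaller difference of 0.61 (SE 0.12, adjusted p = 0.00816).

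OASL, an oligoadenylate synthetase-like protein that strengthens RIG-I signalling, had 230.5, 232.5 and 249 CPM in the Huh7 label, against 0.87, 0.76 and 0.83 CPM in the 293T label (8.19, SE 0.16, adjusted p = 3.09e-08). ISG15, a ubiquitin-like modifier, had 136, 132.8 and 145.7 CPM in the Huh7 label, against 3.98, 3.51 and 2.18 CPM in the 293T label (5.42, SE 0.23, adjusted p = 3.11e-06). None of these groups overlapped. MX1, which encodes a dynamin-like antiviral GTPase and is often the marker of choice for interferon, was low in both, at 0.61, 0.995 and 1.09 CPM in the Huh7 label and 0, 0 and 0.09 CPM in the 293T label (4.89, SE 0.99, adjusted p = 0.00796).

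The sensors of viral RNA were higher as well. IFIH1, which encodes MDA5, had 92.4, 90.9 and 86.4 CPM in the Huh7 label, against 1.28, 0.91 and 1.43 CPM in the 293T label (6.23, SE 0.20, adjusted p = 6.85e-07). DDX58, which encodes RIG-I, had 214, 220.6 and 190.3 CPM in the Huh7 label, against 1.87, 5.41 and 6.09 CPM in the 293T label (5.55, SE 0.39, adjusted p = 6.23e-05). The signal transducer STAT2 overlapped between the labels. It averaged 27.3 CPM in the Huh7 label and 31.2 CPM in the 293T label (−0.19, adjusted p = 0.361). The called member on the lower side was IRF7, a regulator that amplifies interferon genes, at 0.08, 0.11 and 0.54 CPM in the Huh7 label against 1.31, 1.41 and 1.17 CPM in the 293T label (−2.38, SE 0.66, adjusted p = 0.0283). That call was lost without replicate 1 or 2 of either label. The members not called were STAT2, IRF9, IFI27, MX2 and OAS2.

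Further genes of the pathway were looked up after the values of the list were seen, so they are a description with the adjusted p of the fit over all genes. IFNB1, the gene of interferon beta, had 2.01, 1.26 and 2.10 CPM in the libraries labelled Huh7 and no count in those labelled 293T, at least 87.2-fold higher (adjusted p = 0.000594). IFNL1, an interferon lambda, had 0.24, 0.81 and 0.87 CPM in the Huh7 label, against 0, 0.16 and 0 CPM in the 293T label (adjusted p = 0.0491), and IFNL2 had no count in any of the 6. The receptor chains IFNAR1 and IFNAR2 and the kinases JAK1 and TYK2 were higher by 0.66 to 0.77, and the lambda receptor chains IFNLR1 and IL10RB were not called. STING1, the adaptor that answers to cytosolic DNA, averaged 6.59 ± 0.99 CPM in the Huh7 label and 0.93 ± 0.27 CPM in the 293T label (SD, n = 3 each), a difference of 2.82 (SE 0.28, edgeR adjusted p = 0.000416). CGAS, the DNA sensor upstream of it, was nearly silent in the Huh7 label, at 0, 0.18 and 0 CPM against 0.57, 0.74 and 1.03 CPM in the 293T label.

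Targets of NF-κB were among the genes higher in the Huh7 label. NFKBIA, the inhibitor that NF-κB induces against itself, had 98.9, 101.7 and 103.6 CPM in the Huh7 label, against 21.99, 20.3 and 12.1 CPM in the 293T label (2.49, SE 0.21, adjusted p = 0.000202). TNFAIP3, which encodes the deubiquitinase A20, averaged 36.6 CPM in the Huh7 label and 12.4 CPM in the 293T label (1.57, SE 0.16, adjusted p = 0.000531). CXCL10, a chemokine induced by interferon, had 13.5, 13.2 and 12.4 CPM in the Huh7 label, against 0, 0 and 0.21 CPM in the 293T label. IL6 had no count in any of the 6 libraries. The blood cell genes PTPRC and CD3E were at 0 in the same 6 libraries.

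**Figure D2:**
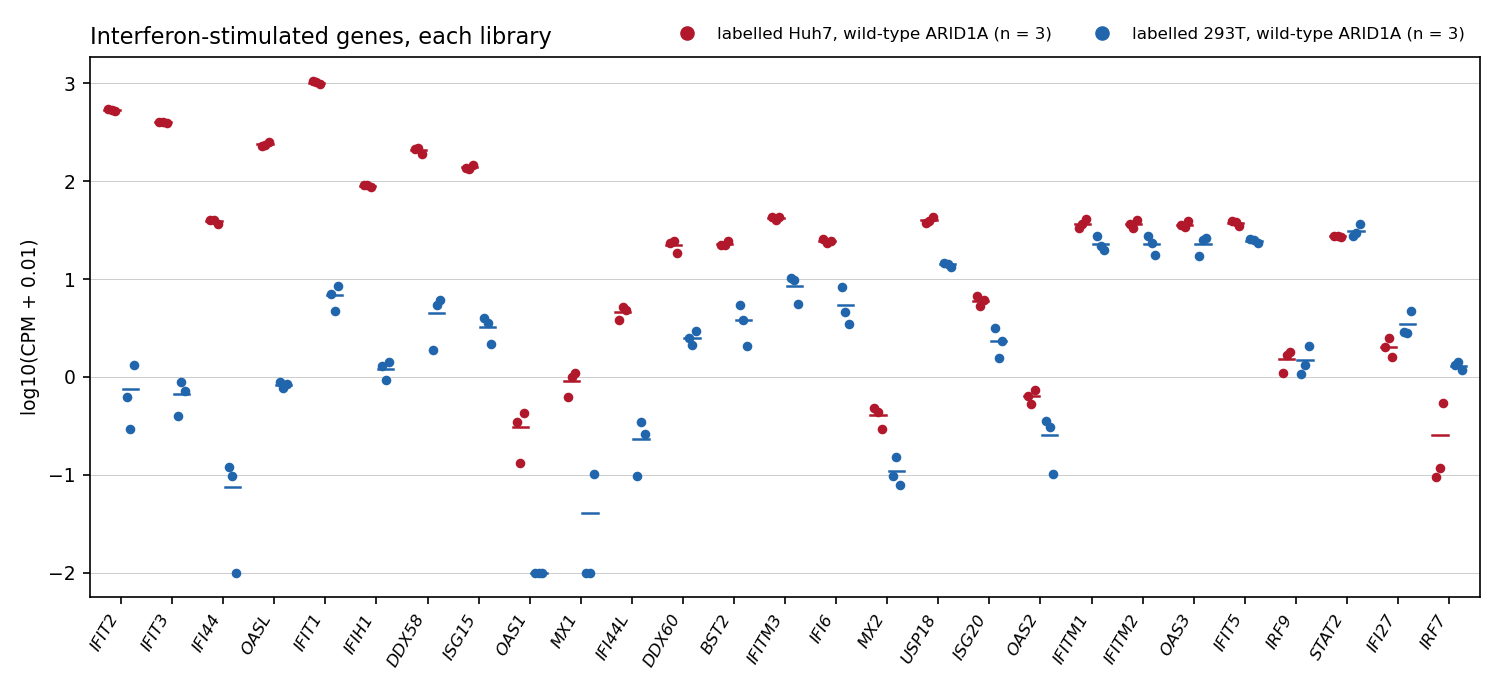
Levels of 27 of the 28 interferon-stimulated genes in each library, as log10 of CPM plus 0.01, ordered by the ratio of the group means, with a bar at each mean CPM of 3 libraries. The effectors and sensors on the left are far apart, IFIT1 at 979.6 to 1045 CPM in the Huh7 label and 4.76 to 8.58 CPM in the 293T label, while STAT2 and IRF9 near the right end overlap.

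Short and untailed RNAs also differed between the labels. The summed 5S ribosomal RNA rows, 22 annotated copies that share reads and are therefore given only as a sum, had 65.5 to 74.7 CPM in the libraries labelled Huh7 and 0.47 to 0.51 CPM in those labelled 293T. All nuclear rRNA rows together had 108.4 to 136.2 CPM in the Huh7 label and 19.5 to 25.4 CPM in the 293T label. With V2084D the 5S sum was 12.8 to 29.4 CPM in the Huh7 label and 0.51 to 0.67 CPM in the 293T label. The nuclear rRNA rows then overlapped, at 39.1 to 74.1 CPM in the Huh7 label and 11.6 to 39.3 CPM in the 293T label. Of 20 RNAs without a poly(A) tail 18 passed the filter, 1 was higher and 8 were lower (13% and 12.3% over all genes). RN7SL1 and RN7SL2, near-identical genes of the signal recognition particle RNA whose split of reads is uncertain, were lower by 1.35 (SE 0.16) and 1.49 (SE 0.15), and the replicative histone gene H1-2 was lower by 1.82 (SE 0.19, adjusted p = 0.000512). The part of these RNAs in the differences of other genes was not tested.

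Antigen presentation, which interferon also raises, differed only in part. Of 14 genes 13 passed the filter, 5 were higher and 1 lower, against 13% higher and 12.3% lower over all genes. B2M, the light chain of class I molecules, had 631, 645.4 and 591.5 CPM in the Huh7 label, against 158.9, 108.6 and 149 CPM in the 293T label (2.17, SE 0.16, adjusted p = 8.31e-05). TAP1 and PSMB9, which pump and trim peptides, and the chaperones CALR and PDIA3 were higher by 0.46 to 1.32. The class I heavy chain gene HLA-C averaged 308 CPM in the Huh7 label and 305.7 CPM in the 293T label (0.02, SE 0.13, adjusted p = 0.945). NLRC5, the transactivator of class I genes, had 2.65, 2.92 and 2.65 CPM in the Huh7 label, against 7.03, 7.32 and 6.39 CPM in the 293T label (−1.33, SE 0.18, adjusted p = 0.00167). The higher members numbered 3 without replicate 1 or 3 of the Huh7 label.

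On the lower side the ranking used the same minimum mean level, which leaves out ALB and CGAS. Its 10 largest differences were those of MARVELD3, HCAR1, ARID1A, SOD3, PRR35, ITM2A, NPR1, FIBCD1, TNXB and C1orf116. MARVELD3, a tight junction protein, had 0.05, 0 and 0.06 CPM in the Huh7 label, against 5.16, 3.32 and 4.30 CPM in the 293T label (−6.80, SE 0.57, adjusted p = 0.000181). HCAR1, the receptor for lactate, had 0, 0.05 and 0.08 CPM in the Huh7 label, against 4.38, 5.18 and 5.98 CPM in the 293T label (−6.76, SE 0.55, adjusted p = 0.000161). ITM2A, a membrane protein of cartilage and T cells, had 2.57, 3.86 and 2.54 CPM in the Huh7 label, against 64.1, 53.4 and 34.1 CPM in the 293T label. For TNXB and C1orf116 the 293T replicate with the most ARID1A also had the highest level, 39.3 and 11.04 CPM, against 12.8 and 17.5 CPM and 1.42 and 2.65 CPM in the other two. TNXB has a near-identical pseudogene, so its counts are uncertain.

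Among the best counted genes the differences were small. EEF2, HSP90AA1, GAPDH, YBX1 and ENO1 were the called genes with the most counts on the higher side, and they were higher by 0.36 to 0.52. EEF1A1, RPS2, HSP90AB1 and RPL13 followed ARID1A on the lower side, lower by 0.54 to 0.79. EEF1A1, a translation elongation factor, had 5004, 4976 and 5049 CPM in the Huh7 label, against 10560, 8063 and 7384 CPM in the 293T label (−0.79, SE 0.14, adjusted p = 0.0047).

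HOX genes, which record position along the body axis, were on under both labels. Of 39 genes 38 passed the filter, 37 averaged at least 1 CPM in the Huh7 label and 36 in the 293T label, and their summed level was 1401 to 1415 CPM in the Huh7 label and 793 to 1162 CPM in the 293T label. Called genes were 14 higher and 1 lower, against 13% higher and 12.3% lower over all genes, and the median was 0.46. HOXC12 stood out with 4.40, 4.47 and 3.62 CPM in the Huh7 label, against 0.44, 0.60 and 0.46 CPM in the 293T label (3.06, SE 0.27, adjusted p = 0.000241). HOXD13 had 142.9, 141.1 and 137.5 CPM in the Huh7 label, against 90.7, 84.0 and 49.9 CPM in the 293T label (0.91, SE 0.20, adjusted p = 0.0114). HOXB5 was the lower one, by 0.66 (SE 0.14, adjusted p = 0.00997). The higher genes numbered 6, 5 and 4 without replicates 1, 2 and 3 of the Huh7 label.

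Targets of YAP and TEAD, the effectors of the Hippo pathway, gave 8 higher and 3 lower of 25, all of which passed. Over all genes 13% were higher and 12.3% lower, so the lower count was near the share of all genes. CCN2, a matricellular protein of fibrosis, had 27.5, 25.2 and 29.97 CPM in the Huh7 label, against 3.77, 5.08 and 2.74 CPM in the 293T label (2.84, SE 0.23, adjusted p = 0.000143). CCN1, its relative, averaged 72.9 ± 2.58 CPM in the Huh7 label and 23.8 ± 4.83 CPM in the 293T label (SD, n = 3 each), a difference of 1.62 (SE 0.17, edgeR adjusted p = 0.000484). NT5E, DLC1 and FOXF2 were the lower members.

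Of 28 subunits of the SWI/SNF complexes, all of which passed, 4 were higher and 4 lower with ARID1A among them, shares near the 13% and 12.3% over all genes, and the median was 0.10. Without any one library of the Huh7 label 2 were higher and 1 lower, and leaving out libraries of the 293T label gave 3 to 5 higher and 1 to 5 lower. SMARCA4, the ATPase of the complex, had 461, 455.8 and 501 CPM in the libraries labelled Huh7, against 279, 335 and 262 CPM in those labelled 293T (0.70, SE 0.13, adjusted p = 0.00489). SMARCB1, SMARCD3 and the PBAF subunit PBRM1 were the other higher ones, and BCL7B, BICRA and BICRAL the other lower ones. BICRAL, a subunit of the non-canonical complex, averaged 6.01 ± 0.66 CPM in the Huh7 label and 12.4 ± 4.67 CPM in the 293T label (SD, n = 3 each), lower by 1.04 (SE 0.28, edgeR adjusted p = 0.025).

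Of 28 glycolysis and hypoxia genes 27 passed, 10 were higher and 2 lower, with a median of 0.36. The counts of this paragraph read against 13% higher and 12.3% lower over all genes. LDHA, which makes lactate, had 1149, 1149 and 1133 CPM in the Huh7 label, against 565, 529 and 728 CPM in the 293T label (0.92, SE 0.14, adjusted p = 0.00253). Cholesterol synthesis gave 7 higher and 1 lower of 21 that passed. SREBF2, the transcription factor over these genes, had 171.6, 171.2 and 184.4 CPM in the Huh7 label, against 214.9, 258.3 and 274.4 CPM in the 293T label, and was lower by 0.50 (SE 0.13, adjusted p = 0.0203). Without any one library of the Huh7 label the higher cholesterol genes numbered 3 or 4, and without replicate 3 of the 293T label the higher glycolysis genes numbered 17.

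Heat shock genes gave 8 higher and 2 lower of 25 that passed, among the higher ones HSPA1A and HSPA1B, whose near-identical sequences leave their split uncertain. Integrated stress response genes gave 1 higher and 5 lower of 26, with ATF4 lower by 0.64 (SE 0.12, adjusted p = 0.00506). Cytosolic ribosomal protein genes gave 4 higher and 3 lower of 32, and nuclear respiratory chain genes 2 higher and 0 lower of 31. Mitochondrial DNA transcripts gave 1 higher and 0 lower of 13, and G2/M genes 1 higher and 2 lower of 30. All counts of this paragraph read against 13% higher and 12.3% lower over all genes. The ribosomal protein counts lay near or below those shares, and the respiratory chain, mitochondrial and G2/M counts lay below them. p53 targets gave 3 higher and 5 lower of 22, with the cell cycle inhibitor CDKN1A lower by 0.82 (SE 0.15, adjusted p = 0.00525) and MDM2 lower by 0.82 (SE 0.20, adjusted p = 0.0184). The heat shock genes called higher numbered 4 without replicate 3 of the Huh7 label and 14 without replicate 3 of the 293T label. For the other lists of this paragraph single libraries of either label decided most calls: leaving 1 out in turn gave 0 to 9 higher nuclear respiratory chain genes, 0 to 8 higher and 1 to 6 lower ribosomal protein genes, 0 to 5 G2/M genes in either direction, 1 to 6 higher and 2 to 7 lower p53 targets, and 3 to 7 lower stress response genes.

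**Figure D3:**
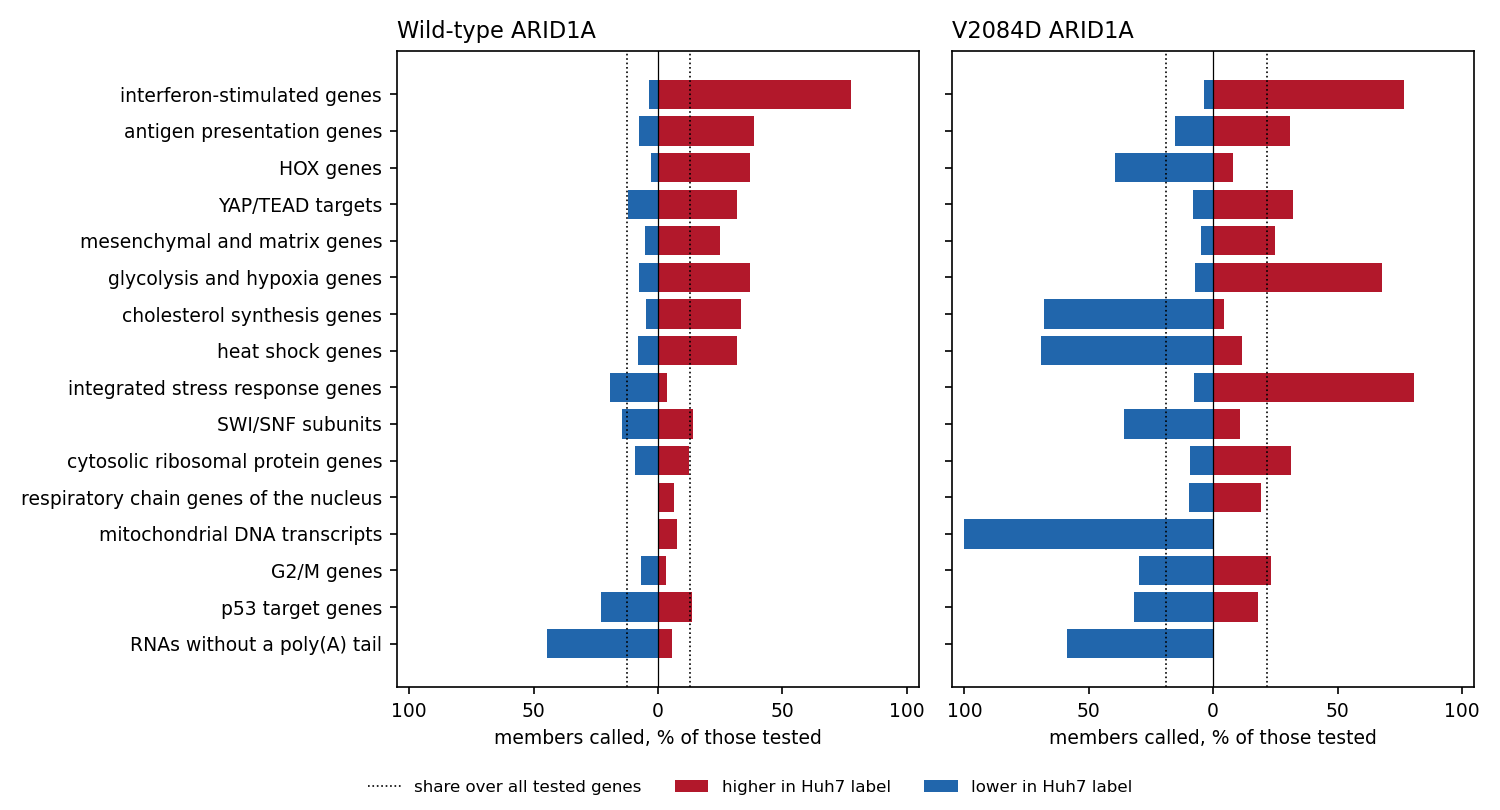
Share of the tested members of 16 gene lists called higher (right) or lower (left) in the Huh7 label than in the 293T label, with wild-type ARID1A (left panel) and V2084D ARID1A (right panel); dotted lines give the shares over all tested genes. Interferon-stimulated genes reach 21 of 27 higher with wild type and 20 of 26 with V2084D, whereas heat shock genes have 8 higher and 2 lower of 25 with wild type and 3 higher and 18 lower of 26 with V2084D.

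Differences followed position along the chromosomes. The median log2 difference of all tested genes was −0.52 on chromosome 16, where 17 of 1011 genes were higher and 334 lower. It was −0.36 on chromosome 6 (62 higher and 302 lower of 1062) and −0.21 on chromosome 1 (194 higher and 409 lower of 2127). It was 0.28 on chromosome X (201 higher and 36 lower of 687), 0.24 on chromosome 15 (171 higher and 50 lower of 755) and 0.24 on chromosome 19 (339 higher and 84 lower of 1405). These counts read against 13% higher and 12.3% lower over all genes.

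Over 407 windows of 50 neighbouring tested genes, the median was above 0.5 in 9 and below −0.5 in 26. Each of the 20 windows of chromosome 16 had a negative median, from −0.26 to −0.82. On chromosome 6 the window from 26188765 to 28089563 (GRCh38), which holds the large histone gene cluster, had the lowest median of all, −1.27, with 0 genes higher and 27 lower, and the windows from 30282349 to 33589026 across the major histocompatibility region lay between −0.55 and −0.84. On chromosome 1 the windows from 148102046 to 160098943 lay between −0.52 and −0.71. On chromosome X the 6 windows up to 71532374 lay between 0.49 and 0.80, and the 7 windows beyond it between −0.04 and 0.23. On chromosome 15 the first 7 windows, up to 63142061, lay between 0.42 and 0.78. The first 4 windows of chromosome 8, up to 30083467, lay between −0.58 and −0.75.

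**Figure D4:**
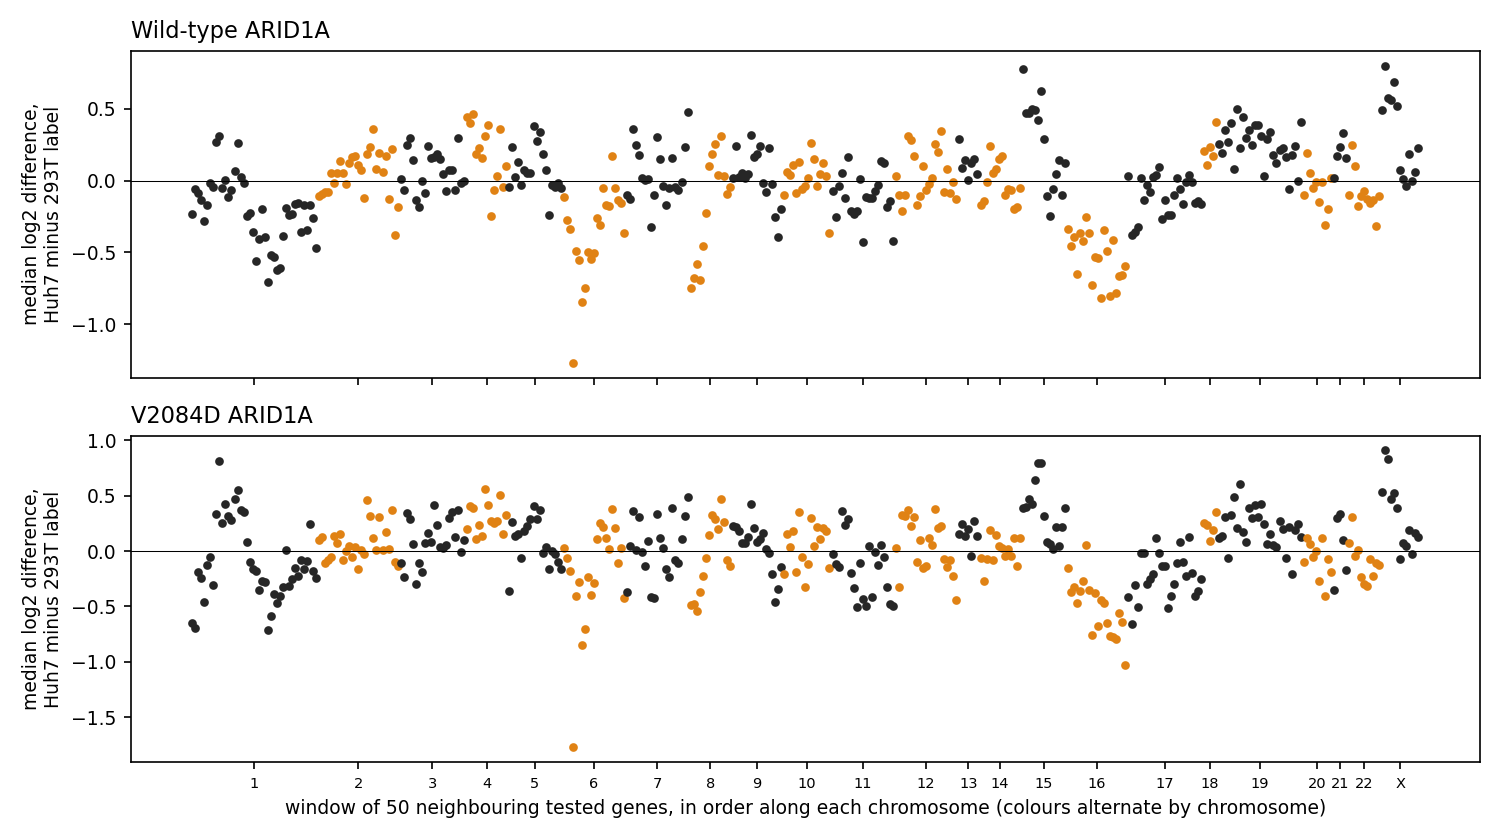
Median log2 difference, Huh7 label minus 293T label, of each of 407 windows of 50 neighbouring tested genes in order along the chromosomes, with wild-type ARID1A above and V2084D ARID1A below. Chromosome 16 lies below 0 throughout with wild type, and the first 6 windows of chromosome X lie above 0 in both panels.

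The 6 libraries with V2084D ARID1A measured the same pair of labels again. There 8629 of 21264 genes (40.6%) were called, 4582 higher (21.5%) and 4047 lower (19%). Of 20400 genes tested in both comparisons, 5281 were called with wild type and 8496 with V2084D, and 2982 were called in both in the same direction, which is 56.5% of the first set and 35.1% of the second. Another 196 were called in both in opposite directions. The sign was shared by 84.6% of the genes called with wild type, against 68.5% of all genes. The ARID1A levels were again far apart, at 263.5, 270 and 211 CPM in the Huh7 label and 52920, 42890 and 116300 CPM in the 293T label.

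The antiviral genes were measured apart again. Of 26 interferon-stimulated genes that passed the filter 20 were higher and 1 lower, with a median of 2.47, and the summed level was 1515 to 1618 CPM in the Huh7 label and 210 to 231 CPM in the 293T label. IFIT2 averaged 331.5 CPM in the Huh7 label and 0.65 CPM in the 293T label (8.98, adjusted p = 5.18e-09), and IFNB1 again had counts under the Huh7 label alone (adjusted p = 5.7e-05). PPP1R14A, CSAG2, CSAG3, AMBN and CCL5 were again called higher, and COL3A1 was higher by 5.34 (adjusted p = 1.27e-06). Of the 25 secreted liver proteins 6 passed the filter, 0 were higher and 4 lower, and 6 were at 0 in all libraries of the Huh7 label with V2084D, against 12 with wild type. Of the 22 hepatocyte metabolism genes 10 passed, 1 was higher and 3 lower. The chromosome medians were −0.51 on chromosome 16, 0.28 on chromosome X, 0.34 on chromosome 15 and −0.13 on chromosome 6. For chromosomes 19 and 1 they were 0.21 and −0.075, so the median of chromosome 1 was nearer that of all genes than with wild type. The window medians of the comparisons had a Pearson correlation of 0.811 over 407 windows, given as a description.

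Some differences between the labels were not the same with the 2 forms of ARID1A. The test, (Huh7 V2084D minus Huh7 wild type) minus (293T V2084D minus 293T wild type) in all 12 libraries, called 2778 of 23102 genes (12%), 1536 upward (6.65%) and 1242 downward (5.38%). Leaving out any one library labelled Huh7, or replicate 1 of the 293T label with V2084D, lowered the count to between 1708 and 1844. IRS4, higher in the Huh7 label with wild type, averaged 18.7 CPM in the Huh7 label and 271.6 CPM in the 293T label with V2084D (−3.86, adjusted p = 4.46e-06), and the change of the difference was −5.13 (SE 0.32, adjusted p = 1.17e-06). Heat shock genes gave 3 higher and 18 lower of 26 with V2084D, cholesterol synthesis genes 1 higher and 15 lower of 22, integrated stress response genes 21 higher and 2 lower of 26, HOX genes 3 higher and 15 lower of 38, and mitochondrial DNA transcripts 0 higher and 13 lower of 13. The shift of these counts between the forms was not tested for any list as a whole. HSPA8, the constitutive HSP70, averaged 1954 CPM in the Huh7 label and 1765 CPM in the 293T label with wild type, and 271 CPM in the Huh7 label and 2188 CPM in the 293T label with V2084D (change of the difference −3.17).

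**Figure D5:**
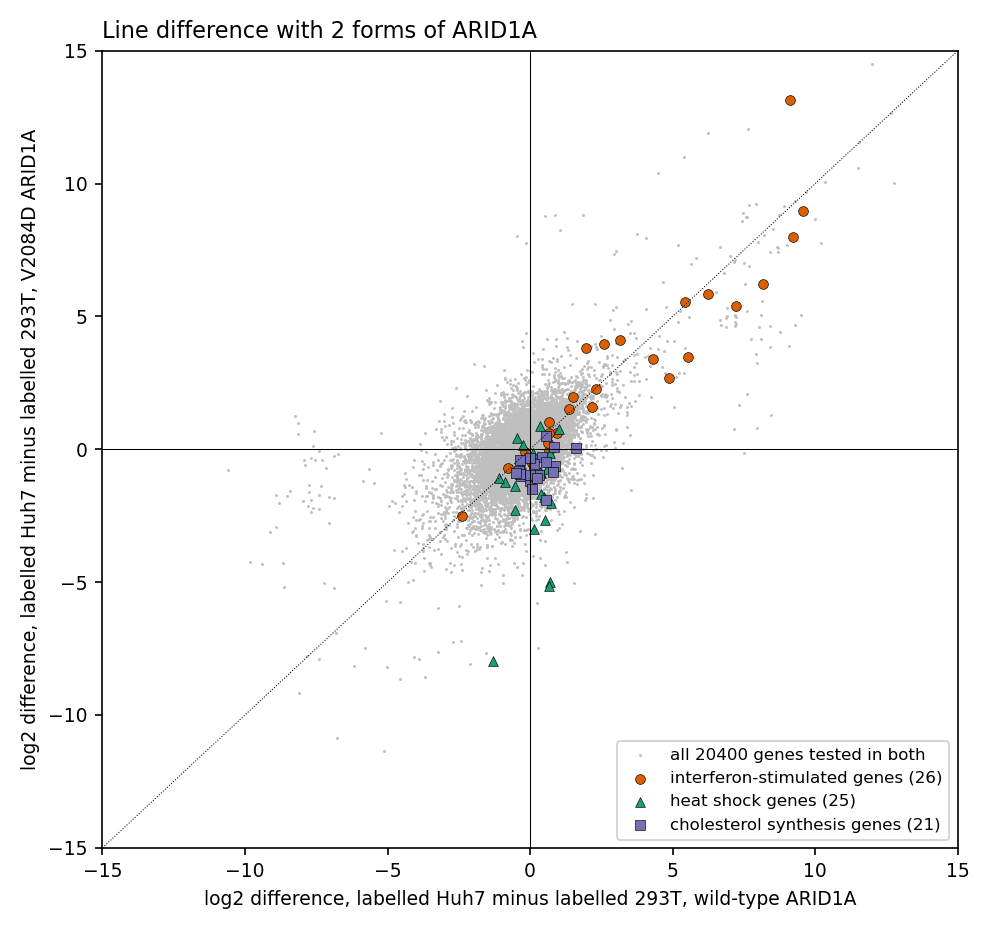
Log2 difference of the Huh7 label minus the 293T label with wild-type ARID1A (x axis) and with V2084D ARID1A (y axis) for 20400 genes, with 3 lists marked and a dotted line at equal values. Most interferon-stimulated genes lie above 0 on both axes, up to 9.56 on the x axis, while heat shock genes spread downward at x values near 0. Some interferon-stimulated genes lie off the line, such as IFI44 at 9.12 and 13.13 and OASL at 8.19 and 6.22 on the x and y axes.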

How the data were processed

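RNA was sequenced in 27 libraries of 9 groups, and 6 of them are compared here. The deposited files are 2 tables of raw counts per gene, 1 per cell line label, which the authors made before deposit and which were joined by row name (67130 rows). RNA was taken up in Trizol and purified with a Qiagen miRNeasy kit, and libraries were made with NEBNext Ultra II, per the labels' protocols. GRCh38 and edgeR are named in the submitters' processing notes, and the aligner, counter, annotation and strand setting are not given in the sources used here. Of the rows, 58420 (87.0%) matched GENCODE 29 and took positions from it.

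Genes were kept by filterByExpr (minimum count 10, minimum total 15), scaled by TMM and tested with edgeR's quasi-likelihood test (edgeR 4.0.16, limma 3.58.1, R 4.3.3) on the 6 libraries of a comparison, or 12 for the test between ARID1A forms, with Benjamini-Hochberg adjustment over all genes and a threshold of 0.05. The SE of a log2 difference was taken from its F value. CPM were computed on 1 TMM scale over 27 libraries and are not divided by gene length, so levels are compared between libraries and not between genes. The scripts were tested on simulated data. The members and gene lists were chosen with earlier results of these data known. Named genes are ARID1A and STUB1, the 10 largest called differences in each direction among named protein-coding genes with groups that do not overlap, genes on in 1 label only, the 5 best counted called genes per direction, and from each list up to 4 members with the smallest p and up to 4 with the highest level, and any member of a cell type list. Some genes that this rule takes are not reported here. Other genes named within a list, and the further genes of the interferon pathway, were chosen after their values were seen. Alternatives were other scaling and filters, DESeq2 1.42.0, offsets for GC and length, a replicate block, 1 fit of 27 libraries, ARID1A counts removed, another 293T group and each library left out.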

Additional observations from a re-analysis of the deposited data

Results flagged for a closer look

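The difference between the labels was not the same with V2084D as with wild-type ARID1A for 2778 genes by the edgeR test of the difference itself, and 32 of them are named here. Each value below is the log2 difference between the labels with V2084D minus that with wild type. Among antiviral genes the difference was smaller with V2084D for IFIT1 (−1.83), IFIT3 (−1.22), OASL (−1.97) and DDX58 (−2.08), and larger for BST2 (1.34). Among genes typical of 293 cells and of position it changed for IRS4 (−5.13), NEFL (0.67), HOXA10 (−0.76), HOXA11 (−1.21), HOXB5 (−1.74) and HOXD13 (−0.96).

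The chaperone genes among them had negative values, with HSPA8 at −3.17, HSPH1 at −2.77, HSP90AA1 at −2.32, CHORDC1 at −1.51, CALR at −1.16, HSP90AB1 at −0.86 and FKBP4 at −0.86. Other chaperone genes did not pass, such as DNAJB6 at −0.25 (adjusted p = 0.35) and HSPB1 at −0.37 (adjusted p = 0.568). NSDHL and HMGCS1 of cholesterol synthesis were at −1.66 and −1.50, while SC5D (−0.08, adjusted p = 0.881) and MVK (−0.43, adjusted p = 0.17) of the same list did not pass. No list was tested as a whole. Of the stress response genes, NUPR1 changed by 4.90 and SARS1 by 1.29. The change was −1.0 for PFKP, −0.74 for PKM and 0.57 for GAPDH among glycolysis genes. Of the genes furthest apart with wild type it was −6.21 for SOD3, −3.73 for ITM2A and 2.71 for PRR35, and SOD3 had no count in the Huh7 label with V2084D, so its value depends on the prior count. The remaining values were 2.69 for ALB, 2.31 for CLDN4, −0.90 for SMARCA4 and 0.83 for RPS2.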

How the results depend on the processing

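Of 110 genes followed through the alternatives, 73 kept direction and side of the threshold in each, 32 lost the call in at least 1 and 5 reversed. The sets of lost calls and reversals overlap, since SARS1 is in both. Some genes also gained a call in an alternative, such as STUB1. Leaving out 1 library gave 2801 to 6839 calls with wild type, 6346 to 9958 with V2084D and 1708 to 3448 for the test between forms. Counting only differences of at least 1 on the log2 scale left 2408 and 3842 calls with wild type and with V2084D. The members of the interferon list called higher numbered 18 to 22 with 1 library left out. With the replicate number as a block, 4262 genes were called with wild type (4122 shared with the fit without it), 8462 with V2084D and 2520 between forms, and 21 interferon genes stayed higher. Same-numbered libraries of the Huh7 and 293T labels with wild-type ARID1A did not deviate together, with correlations of 0.006, 0.01 and −0.013. The numbers therefore do not pair these samples between the labels. Within the 293T label, replicate 3 had the most ARID1A both with wild type (63180 CPM) and with V2084D (116300 CPM). Whether same-numbered wild-type and V2084D libraries of that label share a batch was not tested.

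With the 293T knockout cells as reference, 7387 genes were called (3858 shared), and ARID1A (1.269), STUB1 (0.391), HOXD10 (−0.03) and SARS1 (0.053) reversed. These cells carry no added ARID1A, and for the other genes the cause was not tested. CPS1 was 0.219 without replicate 3 of the 293T label and −0.246 without replicate 1. STUB1 was −0.412 (adjusted p = 0.0293) without replicate 3 of the 293T label and 0 with GC and length offsets and the block, and the cause was not tested. Low counts limit ALB, MX1, IRF7, IFNL1 and CGAS, which stayed under 1 CPM in each library of the label with the lower level.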
